A study of Mus musculus with 2 samples.

Results

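Heat-shock-high microglia were, in each of 2 libraries of sorted retinal cells, the 5% of microglia with the most transcripts of 4 heat-shock genes; the cells were chosen by their levels of Dnajb1, Hspa1a, Hspa1b and Hsph1. There were 233 such cells among 4655 microglia of the light-damaged library and 175 among 3503 of the control library, out of 10824 cell barcodes in the series. A barcode counted as a microglial cell when it had at least 300 genes, at most 10% mitochondrial transcripts and at least 20 of every 10000 transcripts from P2ry12, Tmem119, Siglech, Gpr34 and P2ry13, receptors and membrane proteins typical of resting microglia. The heat-shock score of a cell was its number of unique molecular identifiers (UMIs, one per captured transcript) of the 4 genes per 10000 UMIs. The remaining 95%, 4422 cells of the light-damaged library and 3328 of the control library, were the comparison.

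Both libraries came from male CB6F1 mice, 8 months old, with a Cx3cr1-YFP reporter, so that cells using the fractalkine receptor gene, mainly microglia and related macrophages, fluoresce. The light-damaged group, labelled LD, had 4 h of LED light at 10 klux after a night in the dark and with dilated pupils, then 5 days in normal light. The control group, labelled ctrl, had no light damage; the labels do not say whether it was dark-adapted or had its pupils dilated. Retinas of 5 to 8 mice were pooled per group, and both pools were digested with collagenase A and DNase I for 30 min at 37 °C before live YFP-positive cells were sorted. Each group was 1 pool and 1 library, so no difference has a replicate check and no test was possible; the intervals below are exact 95% intervals that cover counting error only.

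Heat-shock genes encode chaperones, proteins that hold or refold unfolded proteins. Heat-shock factor 1 is held inactive in unstressed cells; when unfolded proteins draw chaperones away, it forms trimers and binds heat-shock elements, repeated inverted GAA units near the start of these genes. Microglia, the resident macrophages of the retina, switch on such genes, and fast transcription factors such as Fos and Jun, readily when tissue is handled. Both pools were digested in the same way, so transcripts made in the retina and transcripts made after its removal cannot be told apart here.

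The 4 rule genes chose the cells, so their levels are a description. Hspa1a encodes the main inducible HSP70, and it supplied most of the score, 85.3% of the score UMIs in heat-shock-high cells of the light-damaged library and 87.6% in those of the control library. Its level was 45870 CPM (UMIs of the gene per 1000000 UMIs) in the heat-shock-high and 6282 CPM in the remaining cells of the light-damaged library, and 54042 CPM in the heat-shock-high and 11778 CPM in the remaining cells of the control library. Dnajb1, the HSP40 that delivers substrates to HSP70, had 3152 against 237 CPM in the light-damaged library and 3180 against 312 CPM in the control library. Hspa1b, the neighbouring near-identical copy of Hspa1a, had 3117 against 541 CPM and, in control, 2690 against 769 CPM. Hsph1, an HSP110 that exchanges nucleotide on HSP70, had 1620 against 190 CPM and, in control, 1759 against 272 CPM. Reads of the Hspa1a and Hspa1b copies can be told apart in these files only where their 3′ ends differ; no 50-base word within the last 500 bases of either gene was shared with another gene, but their split was not checked further. Together the 4 genes took 5.38% of all UMIs of heat-shock-high cells and 0.725% of those of the remaining cells in the light-damaged library, and 6.17% against 1.31% in the control library.

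The cells lay at the end of a continuous range rather than in a separate group. In the light-damaged library the lowest scores inside the set were 397.9, 398.0 and 400.8, and the highest outside were 397.0, 397.0 and 396.8. In the control library the lowest inside were 495.0, 497.1 and 497.8, and the highest outside 494.1, 493.9 and 493.5. The median score was 511 in heat-shock-high and 49.4 in remaining cells of the light-damaged library, and 594 against 101 in the control library. The cut thus differed between libraries: 335 control microglia (9.56%) lay above the light-damaged cut, while 130 light-damaged microglia (2.79%) reached the control cut. Those 130 were 55.8% of the light-damaged set.

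**Figure D1:**
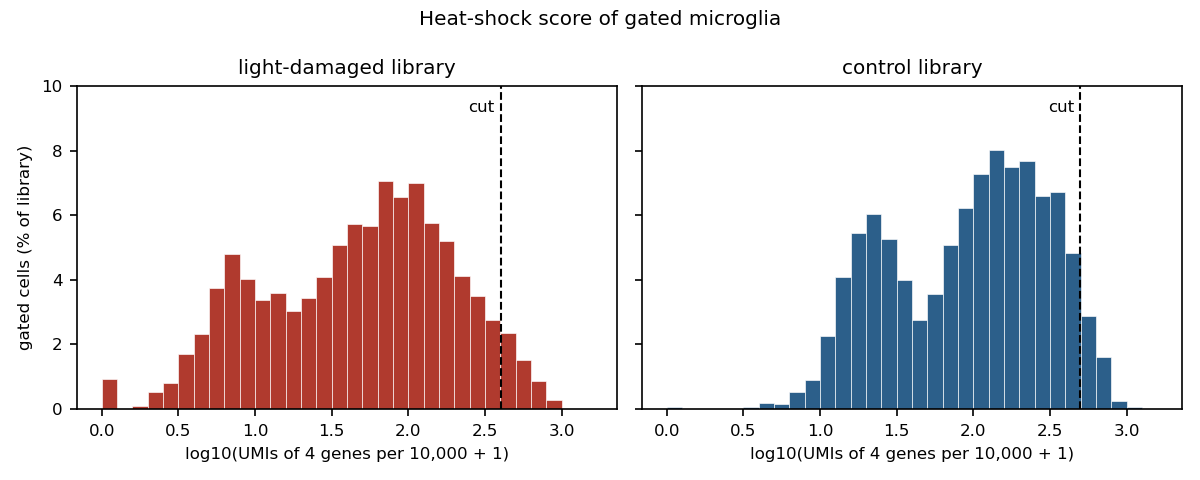
Distribution of the heat-shock score over all microglia of the light-damaged (left) and control (right) library; the horizontal axis is log10 of the score plus 1, the vertical axis the percent of that library's microglia in each bin, and the dashed line the cut for the top 5%. Both libraries show a low and a high hump with no gap at the cut, and median scores of the remaining cells were 49.4 in the light-damaged and 101 in the control library.

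Among the 4 genes, single cells differed widely. In the light-damaged set Dnajb1 ran from a 10th percentile of 2.81 through a median of 22.3 to a 90th percentile of 67.8 UMIs per 10000, and Hspa1a from 356 through 444 to 626. In the control set Dnajb1 ran from 0 through 15.4 to 76.8 and Hspa1a from 447 through 527 to 677. Each gene was left out of its own score in turn. Without Dnajb1, Hspa1b or Hsph1 the score was still mostly Hspa1a, so each ratio mainly shows how far that gene followed Hspa1a. The chosen cells were then largely the same, 223, 227 and 228 of 233 light-damaged and 165, 169 and 169 of 175 control cells. Cells chosen without Dnajb1 had 12.1 times the Dnajb1 CPM of the rest in the light-damaged library and 8.22 times in the control library. Cells chosen without Hsph1 had 7.92 and 6.05 times the Hsph1, and cells chosen without Hspa1b 5.46 and 3.34 times the Hspa1b. Cells chosen without Hspa1a had 5.29 and 3.09 times the Hspa1a, but only 144 of 233 light-damaged and 72 of 175 control cells were then the same.

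Depth and the microglial markers were as follows. Heat-shock-high cells held fewer UMIs, a median of 4908 against 6974.5 in the light-damaged library and 3758 against 4908 in the control library, and a smaller share of them was mitochondrial, 1.89% against 2.64% and, in control, 0.983% against 1.57%. None of the 5 gate genes differed by 1.5-fold between heat-shock-high and remaining cells in either library. These genes admitted the cells of both sets, so their levels were bounded by the gate. Their sum was 3858 against 4154 CPM in the light-damaged and 5393 against 6592 CPM in the control library. P2ry12, the purinergic receptor that steers microglial processes, had 1326 against 1381 CPM in the light-damaged and 2023 against 2462 CPM in the control library. The 20 homeostatic microglial genes include the 5 gate genes. Their list had a median log2 ratio of -0.13 in the light-damaged and -0.31 in the control library, with 0 higher and 1 lower in each. Over all genes with at least 50 CPM in either set, 12.1% and 15.1% were higher and 13.7% and 14.1% lower. The 20 genes summed to 54594 against 55375 CPM in the light-damaged and 75827 against 106376 CPM in the control library. Of 8 monocyte markers, summed levels were 19.1 against 50.3 CPM and, in control, 18.6 against 16.4 CPM; 8 perivascular macrophage markers summed to 9.97 against 36.1 CPM and, in control, 60.2 against 29.0 CPM. The 10 rod markers summed to 197 against 250 CPM and, in control, 513 against 742 CPM. All markers of T and NK cells, erythrocytes and dendritic cells were at 0 in heat-shock-high cells of both libraries, and the lists of cones, Mueller glia and neutrophils each had 1 member above 50 CPM in both, Gngt2, Glul and Csf3r, at 190, 843 and 147 CPM in the light-damaged and 226, 1046 and 143 CPM in the control set. A total of 47 barcodes occurred in both libraries, 25 of them as microglia in both and 0 as heat-shock-high cells in both. The library totals were 58187149 UMIs over 6821 barcodes (light-damaged) and 20056338 UMIs over 4003 barcodes (control).

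Before the other genes, sequences near the start of several of them are shown, to let the letters of a heat-shock element be seen; only windows with a match are printed. The letters searched were GAANNTTC or TTCNNGAA, 2 facing units of a heat-shock element, on either strand, in RefSeq promoter windows of 250 bases before to 50 bases after each start (GRCm38.p6). Each line gives 30 bases on the gene's strand with the matched letters in capitals. The first matched base of Hspa1a and Hspa1b lay 104 bases before the start, the Chordc1 run began 4 bases before it and crossed it, and the Hsph1 run lay after it. Windows could hold further matches that are not printed, such as 1 of Hsph1 that began 54 bases before the start.
Hspa1a, chr17:34972242-34972271, minus strand: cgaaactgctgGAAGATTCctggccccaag
Hspa1b, chr17:34959324-34959353, minus strand: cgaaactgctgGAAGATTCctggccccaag
Hsph1, chr5:149636279-149636308, minus strand: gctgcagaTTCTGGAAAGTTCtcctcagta
Hspe1, chr1:55088053-55088082, plus strand: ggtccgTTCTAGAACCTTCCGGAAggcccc
Hspd1, chr1:55088053-55088082, minus strand: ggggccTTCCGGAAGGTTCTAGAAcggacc
Chordc1, chr9:18292260-18292289, plus strand: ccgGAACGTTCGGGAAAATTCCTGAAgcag
Hspb1, chr5:135887791-135887820, plus strand: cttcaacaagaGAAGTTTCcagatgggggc
Dnaja4, chr9:54699458-54699487, plus strand: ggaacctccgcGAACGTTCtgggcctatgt
Zfand2a, chr5:139484669-139484698, minus strand: ttgcctgactgTTCTAGAAaataggcgggg

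The Hspa1a and Hspa1b windows were identical at 296 of 300 positions. Hspe1 and Hspd1, which face away from each other on chromosome 1, shared 1 matched run, read from either strand. The runs of Hsph1, Hspe1, Hspd1 and Chordc1 held overlapping matches and so a run of 3 units in the same spacing, which contains the 2-unit letters. Dnajb1, the highest of the 4 rule genes in fold, had no match in either of its 2 windows. Nor did Hspa1l, Slc5a3, Atf3 or Klf6, which are among the highest genes below, while Itgb5 and Ndufv3, among the lowest, each held 1.

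Of the 17 chaperone genes higher in both libraries that are described next, 13 had a promoter in the table and 8 of these (61.5%) held a 2-unit match. Among the other measured chaperone genes 6 of 23 (26.1%) held one. The letters are common: 15.1% of all 32851 windows and 17.0% of all 27025 genes held them in at least 1 window. Of genes higher in both libraries 23.7% held them, and of genes lower in both 8.55%. Runs of 3 units were in 3 of the 13, in 1 of the 23 (4.35%, Dnajb6) and in 0.662% of all genes. Among 19 immediate-early genes with a promoter 2 held the 2-unit letters. These are matches of letters, not measured binding sites.

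Beyond the rule, 78 chaperone and co-chaperone genes were listed, and 45 in the light-damaged and 43 in the control library reached 50 CPM in either the heat-shock-high or the remaining cells. Of these, 19 were more than 1.5-fold higher in heat-shock-high cells of the light-damaged library and 2 more than 1.5-fold lower; in the control library 19 were higher and 1 lower. Over all genes with that level 12.1% were higher and 13.7% were lower in light-damaged cells, while 15.1% were higher and 14.1% were lower in control cells. The median log2 ratio of the chaperone genes was 0.42 and 0.41, against -0.23 and -0.14 over all genes. A gene below 50 CPM in the remaining cells could pass only by being high, which applied to 7 of the light-damaged and 4 of the control chaperone genes. With the minimum set over all microglia instead, 12 and 15 were higher. In both libraries 17 were higher and Bag1 was lower, where 9.92% and 5.75% of all 2470 genes measured in both were.

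**Figure D2:**
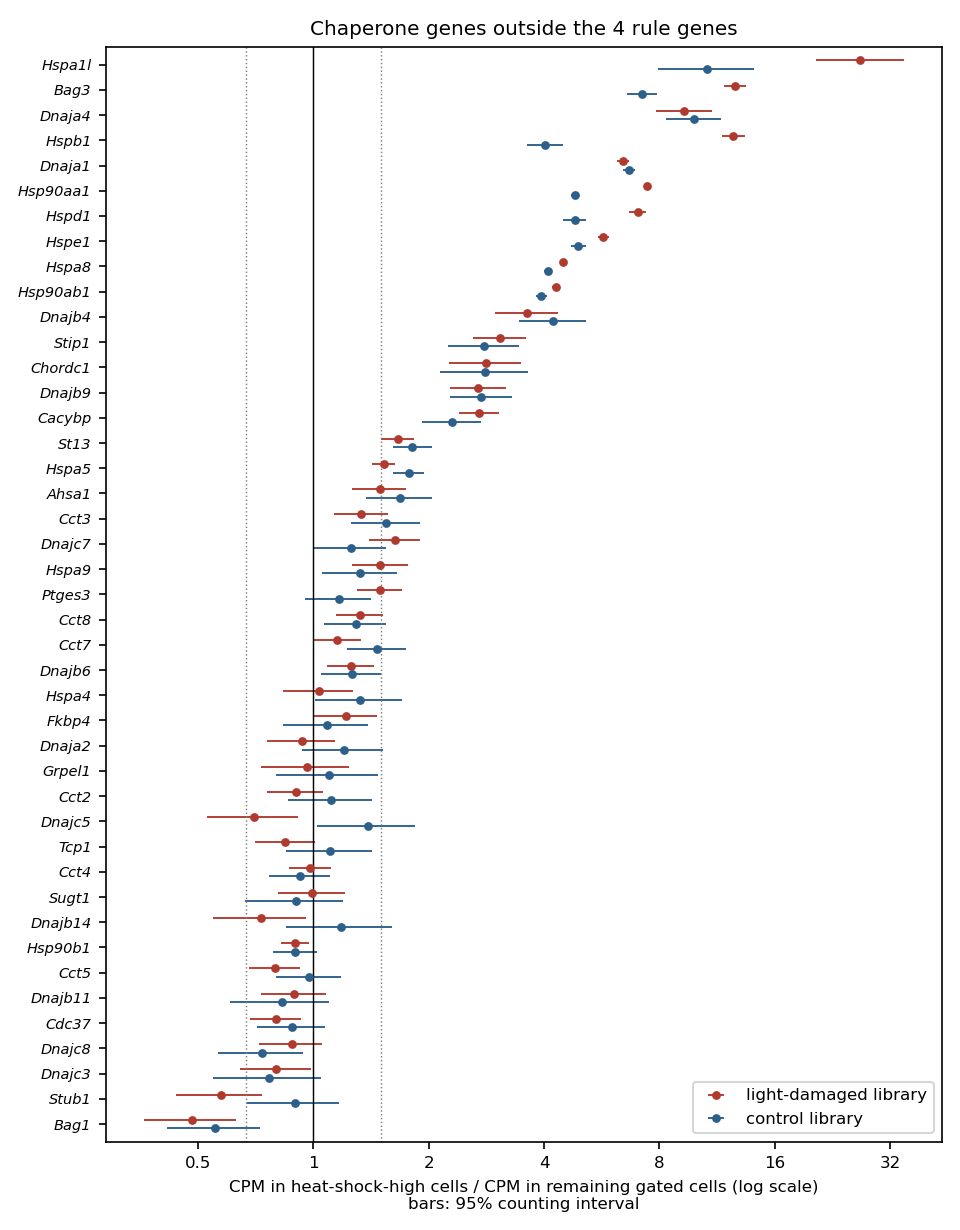
Ratio of CPM in heat-shock-high to CPM in remaining microglia for each chaperone gene outside the rule measured in both libraries, on a log axis, for the light-damaged (red, upper point) and control (blue, lower point) library; bars are 95% counting intervals and dotted lines mark 1.5-fold. Ratios run from 26.6 and 10.6 for Hspa1l down to 0.48 and 0.56 for Bag1, with 17 genes right of the 1.5-fold line in both libraries.

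The HSP70 and HSP110 genes differed in size of ratio. Hspa8, the constitutive cytosolic HSP70 and the most abundant chaperone outside the rule, had 10376 against 2319 CPM in the light-damaged library, a ratio of 4.47 (4.39 to 4.56), and 9827 against 2398 CPM in the control library, a ratio of 4.10 (3.99 to 4.20). Hspa1l, the third HSP70 gene beside Hspa1a and Hspa1b on chromosome 17, had 93.9 against 3.53 CPM (26.6, 20.4 to 34.7) and, in control, 103 against 9.72 CPM (10.6, 7.92 to 14.1); it passed the minimum only through the heat-shock-high cells. Hspa5, the HSP70 of the endoplasmic reticulum, had 671 against 439 CPM and, in control, 741 against 417 CPM. Hspa9, the mitochondrial HSP70, had 124 against 82.7 CPM and, in control, 122 against 91.8 CPM, and Hspa4, an HSP110 relative of Hsph1, 79.8 against 77.1 and 91.7 against 69.2 CPM. Hspa4l, another HSP110 relative, had 60.6 against 13.6 CPM in the light-damaged library and 38.7 against 11.3 CPM in the control library, where it missed the minimum; it too passed only through the heat-shock-high cells. Hspa5 was past 1.5-fold in both libraries (1.53 and 1.77), and Hspa9 and Hspa4 had ratios between 1.03 and 1.50.

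Of the 3 measured HSP90 genes 2 were higher in both libraries. Hsp90aa1, the inducible cytosolic HSP90, had 9574 against 1288 CPM in the light-damaged library (7.43, 7.28 to 7.59) and 10370 against 2150 CPM in the control library (4.82, 4.70 to 4.95). Hsp90ab1, its constitutive partner, had 7061 against 1646 CPM (4.29) and, in control, 6522 against 1656 CPM (3.94). Hsp90b1, the endoplasmic reticulum member, had 472 against 525 CPM and, in control, 327 against 363 CPM, a ratio of 0.90 in both. Of 9 measured HSP90 co-chaperones, 3 were higher in both libraries, where 9.92% of all genes measured in both were. Among the 9, 2 in the light-damaged and 1 in the control library passed the minimum only through the heat-shock-high cells. Stip1, which bridges HSP70 and HSP90, had ratios of 3.07 and 2.79, Chordc1 2.82 and 2.81 and Cacybp 2.70 and 2.30. Cdc37, which loads kinases onto HSP90, had 0.80 and 0.88.

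J-domain proteins, which choose substrates for HSP70 and trigger its ATPase, were mixed. Higher were 5 of 13 in the light-damaged and 4 of 12 in the control library, where 12.1% and 15.1% of all genes were. The minimum was passed only through the heat-shock-high cells by 3 of the 13 and 2 of the 12. Dnaja1 had 2851 against 443 CPM (6.44, 6.20 to 6.68) and, in control, 5230 against 786 CPM (6.65, 6.41 to 6.90). Dnaja4, which passed the minimum only through the heat-shock-high cells, had 158 against 17.0 CPM (9.26) and, in control, 289 against 29.5 CPM (9.82). Dnajb4 had ratios of 3.62 and 4.22 and Dnajb9, a J protein of the endoplasmic reticulum, 2.70 and 2.75. Dnajc3, Dnajc8 and Dnajb11 lay between 0.73 and 0.89 in both libraries. Dnajc7, also higher in the light-damaged library, had 1.64 there and 1.26 in the control library. Dnaja2 and Dnajb6, cytosolic relatives of the higher members, had ratios between 0.93 and 1.26.

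Bag3, the nucleotide exchange factor that sends HSP70 clients to autophagy, and Bag1, which links HSP70 to the proteasome, lay on opposite sides. Bag3 had 1078 against 85.4 CPM in the light-damaged library (12.6, 11.8 to 13.5) and 901 against 125 CPM in the control library (7.22, 6.59 to 7.89). Bag1 had 45.7 against 94.8 CPM (0.48, 0.36 to 0.63) and, in control, 75.9 against 137 CPM (0.56, 0.42 to 0.73). The median heat-shock-high cell held 7.09 Bag3 UMIs per 10000 in the light-damaged and 2.62 in the control library, where the 10% of cells with most Bag3 held 34.1% and 65.3% of its UMIs.

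Hspd1 and Hspe1, the mitochondrial chaperonin HSP60 and its lid HSP10 that share the promoter shown above, were high together. Hspd1 had 1618 against 230 CPM (7.02) and, in control, 1391 against 290 CPM (4.80); Hspe1 had 3697 against 648 CPM (5.70) and, in control, 3335 against 679 CPM (4.91). The 7 measured subunits of the cytosolic chaperonin TRiC, Tcp1 and the Cct genes, had ratios between 0.79 and 1.33 in the light-damaged and between 0.92 and 1.55 in the control library, where Cct3, at 1.55, was past 1.5-fold. Hspb1, the small heat-shock protein HSP25, had 963 against 77.3 CPM in the light-damaged library (12.5, 11.6 to 13.4) and 576 against 143 CPM in the control library (4.03, 3.61 to 4.48). It was uneven between cells: the 10% of heat-shock-high cells with most Hspb1 held 70.2% of its UMIs in the light-damaged and 90.1% in the control library, so that the control level rested on few cells. For some of these genes part of the transcript end also occurs in pseudogenes, 60.6% of the 50-base words for Hspa8, 40.9% for Hsp90aa1 and 39.2% for Hspb1, and counts could be split or lost there.

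Over the whole microglial population the level of these genes followed the score, but not along its full range. Microglia of each library were put into 20 bins by score, the last being the heat-shock-high cells. Hspa1a, a rule gene, had 158, 4264, 10585, 28080 and 45870 CPM in bins 1, 10, 15, 19 and 20 of the light-damaged library, and 777, 9062, 19753, 39109 and 54042 CPM in the control library. The other chaperone genes together had 8283, 10739, 13112, 24672 and 43160 CPM in the same light-damaged bins, and 7806, 10950, 16135, 29161 and 44324 CPM in the control bins. They thus changed little over the lower part of the range in which Hspa1a already differed many-fold. Bag3 had 52.1, 121, 416 and 1078 CPM in bins 10, 15, 19 and 20 of the light-damaged library, and 85.4, 188, 532 and 901 CPM in those of the control library. Bin 19, just outside the set, was itself higher than bin 15 in all of these.

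**Figure D3:**
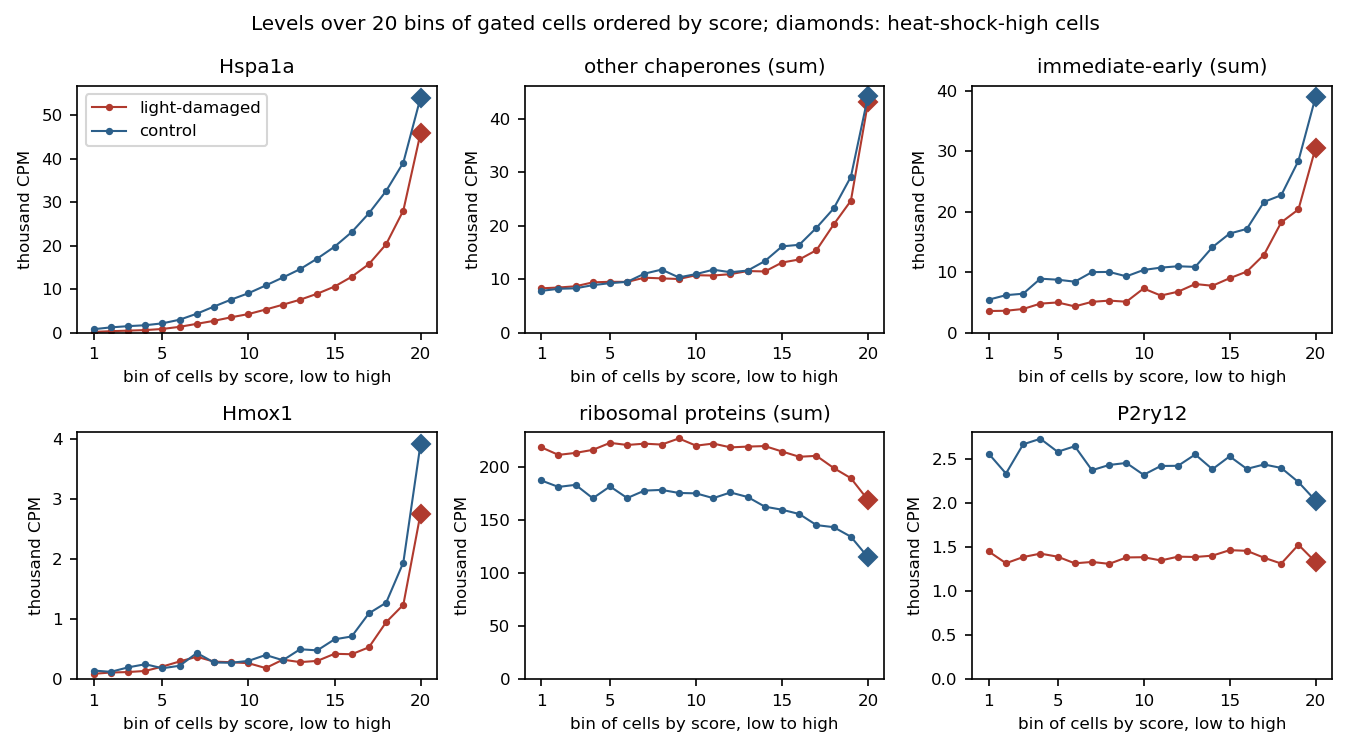
Levels in units of 1000 CPM (vertical axes, from 0) over 20 bins of microglia ordered by heat-shock score (horizontal axes) in the light-damaged (red) and control (blue) library; the diamonds in bin 20 are the heat-shock-high cells. Other chaperones have 10739 and 10950 CPM in bin 10 and reach 43160 and 44324 CPM in bin 20, ribosomal protein transcripts decline to 168465 and 114545 CPM, and P2ry12 has 1326 and 2023 CPM in bin 20, against 1382 and 2316 CPM in bin 10.

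Genes outside the chaperone lists were named by a rule, the highest and lowest by the smaller of their 2 ratios. Hmox1, the heme-degrading heme oxygenase 1, had 2756 against 335 CPM in the light-damaged library (8.23, 7.91 to 8.55) and 3918 against 490 CPM in the control library (8.00, 7.66 to 8.36), and its median over heat-shock-high cells was 18.3 and 18.1 UMIs per 10000, against 0.874 and 1.50 in remaining cells. Slc5a3, the inositol transporter of the osmotic response, had ratios of 7.25 and 8.04, and Zfand2a, a heat- and arsenite-inducible proteasome adaptor, 5.62 and 6.26. Slc5a3, Zfand2a and Gm17056 were under 50 CPM in the remaining cells of both libraries, so they could enter this list only by being high. Atf3, a stress-induced transcription factor, had 6.42 and 5.64, Nfkbiz, an inducible nuclear regulator of NF-kB, 4.81 and 4.56, Klf6 5.27 and 4.41 and Phlda1 4.50 and 8.66. In the control set 93.6% of the Phlda1 UMIs lay in 10% of the cells. Gm17056, annotated antisense to Lsmem1, had 6.49 and 5.95; without a stated strand setting, reads of the 2 genes cannot be told apart.

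Lepr, the leptin receptor gene, was the lowest, with 10.8 against 54.5 CPM (0.20, 0.11 to 0.34) in the light-damaged and 7.16 against 82.5 CPM (0.087, 0.028 to 0.20) in the control library. It rested on 4 light-damaged and 5 control heat-shock-high cells, against 184 and 123 remaining cells, and with the top 10% of cells chosen instead its light-damaged log2 ratio was 0.74. The other 9 lowest were Tmem160, Zfp106, Prelid1, Dap, Itgb5, Sdhaf4, Cnpy2, Ndufc1 and Ndufv3, with ratios between 0.40 and 0.55 in the light-damaged and between 0.43 and 0.54 in the control library. Several of them encode mitochondrial proteins, such as the complex I subunits Ndufc1 and Ndufv3.

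Immediate-early genes, which cells transcribe within minutes of a stimulus without new protein, all lay on one side. All 20 measured in each library were more than 1.5-fold higher in heat-shock-high cells, with a median log2 ratio of 1.91 and 1.77. Over all genes 12.1% and 15.1% were higher, and the medians were -0.23 and -0.14. Of the 20, 6 light-damaged and 5 control genes passed the minimum only through these cells, so they could enter only by being high. Jun had 8492 against 1580 CPM in the light-damaged library (5.38) and 12578 against 3753 CPM in the control library (3.35). Fos had 2208 against 553 CPM (3.99) and, in control, 2958 against 622 CPM (4.76), and Egr1 had 1965 against 407 CPM (4.83) and, in control, 2070 against 490 CPM (4.22). The cells with the highest sum of Fos and Egr1 were only partly the same cells: 71 of the 233 light-damaged (30.5%) and 55 of the 175 control (31.4%) heat-shock-high cells were also in the top 5% for Fos and Egr1, a group that holds 5% of all microglia. For the other chaperones that overlap was 148 of 233 light-damaged cells (63.5%) and 70 of 175 control cells (40%).

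Of 16 cytokine and NF-kB target genes, in light-damaged cells 12 were higher and 0 lower, and 13 were higher and 1 lower in the control library, with medians of 1.30 and 1.25; of all genes 12.1% and 15.1% were higher and 13.7% and 14.1% lower. Tnfaip3, which encodes the feedback inhibitor A20, had 473 against 79.4 CPM and, in control, 365 against 98.0 CPM, and Nfkbia, which encodes the NF-kB inhibitor alpha, 2534 against 652 CPM and 2086 against 632 CPM. The chemokine Ccl4 had 3914 against 1591 CPM and, in control, 4194 against 2194 CPM, and Tnf 322 against 125 CPM and 225 against 97.6 CPM. Of the set, 35 of 233 light-damaged and 23 of 175 control cells (13.1%) were in the top 5% for Ccl3, Ccl4 and Tnf together. Ccl6, a chemokine of resting macrophages, was lower in control, 160 against 277 CPM, and had 151 against 198 CPM in the light-damaged library.

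Other stress lists differed from one another. All 6 measured ubiquitin and heat-induced genes were higher in both libraries, where 9.92% of all genes measured in both were. Sqstm1, which encodes the autophagy receptor p62, had 500 against 172 CPM and, in control, 673 against 225 CPM. The ATF4 genes were higher, 4 of 4 and 5 of 5, with Atf4 at 3.06 and 2.51, Ddit3, which encodes CHOP, at 2.91 and 3.93 and Ppp1r15a, a phosphatase subunit that ends the translation block, at 3.69 and 3.32. Of 16 genes of the endoplasmic reticulum response 5 were higher in each library, Hspa5, Ddit3, Atf4, Herpud1 and Dnajb9, and 0 and 2 were lower; Calr, Canx and Pdia3 had ratios between 0.68 and 0.91. The lists overlap in Atf4, Ddit3, Hspa5 and Dnajb9. The minimum was passed only through the heat-shock-high cells by 1 ubiquitin and 1 ATF4 gene in each library. In the light-damaged library 2 genes of the endoplasmic reticulum response did so too. Such genes could enter only by being high. Of the p53 and apoptosis genes 5 of 7 and 6 of 7 were higher, led by Pmaip1, which encodes Noxa, with 3.92 and 5.18; 2 and 3 of them passed the minimum only through the heat-shock-high cells, and 12.1% and 15.1% of all genes were higher. None of 27 and 29 proteasome subunits was higher, and 3 and 1 were lower, where 13.7% and 14.1% of all genes were lower.

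Among 9 oxidative stress and metal genes, Hmox1, Mt1 and Mt2 were higher in both libraries, where 9.92% of all genes measured in both were. In the light-damaged library 3 were higher and 2 lower, and in the control library 4 higher and 1 lower. Over all genes 12.1% and 15.1% were higher and 13.7% and 14.1% lower. In each library 1 of the 9 passed the minimum only through the heat-shock-high cells. The metallothionein Mt1 had 583 against 289 CPM (2.02) and, in control, 1487 against 427 CPM (3.48). Prdx1, Txn1, Sod1 and Sod2 had ratios between 0.50 and 0.91. The ferritin gene Fth1 had 1.09 and 0.90, and Ftl1 had 1.40 and 1.66.

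**Figure D4:**
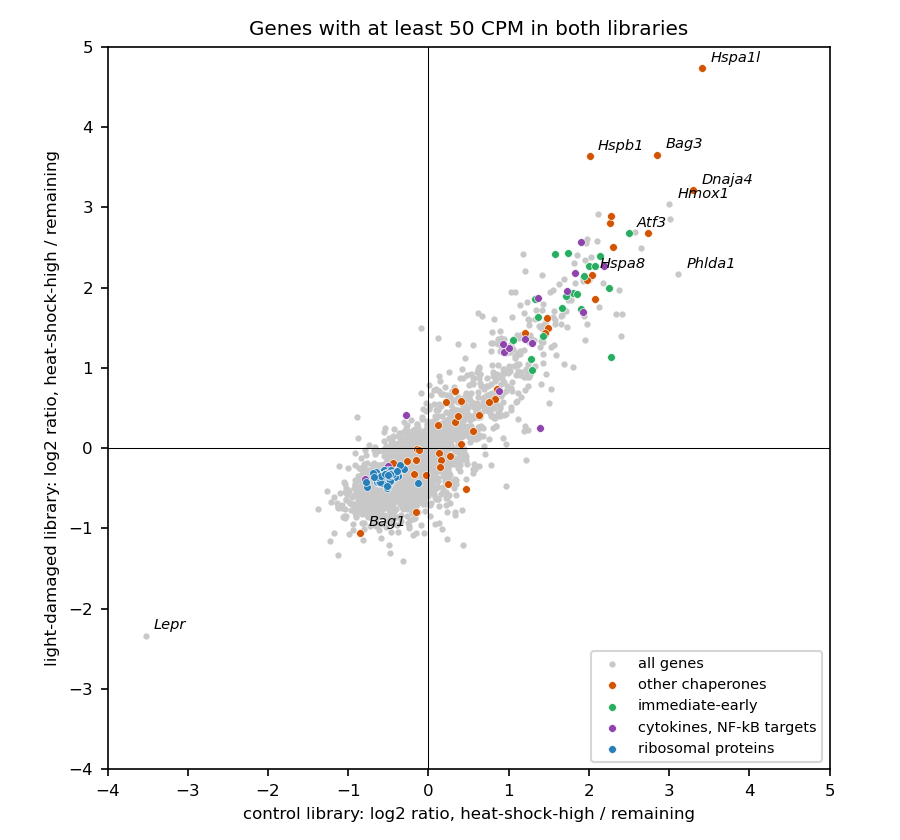
Log2 ratio of heat-shock-high to remaining microglia in the light-damaged (vertical) against the control library (horizontal) for 2470 genes with at least 50 CPM in both, without the 4 rule genes. Immediate-early genes and most cytokine genes (12 of 16 past 1.5-fold in both) lie in the upper right with the higher chaperones. Ribosomal protein genes lie below 0 by their medians, -0.36 in the light-damaged and -0.54 in the control library. In opposite directions 0 genes were past 1.5-fold.

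Transcripts of protein synthesis and energy metabolism took smaller shares in heat-shock-high cells. The 81 measured ribosomal protein genes had a median log2 ratio of -0.36 in the light-damaged library, with 0 past 1.5-fold, and of -0.54 in the control library, with 27 lower. They summed to 168465 against 215702 CPM in the light-damaged library. The oxidative phosphorylation genes had medians of -0.54 and -0.64, with 3 and 8 of 14 lower, and the 12 mitochondrially encoded genes -0.46 and -0.73, with 3 and 10 lower. Glycolytic genes had medians of -0.69, with 6 of 10 lower, and -0.24, with 2 of 11 lower; Gapdh had 543 against 904 CPM and, in control, 447 against 623 CPM. Over all genes 13.7% and 14.1% were lower. The control count of glycolytic genes was near that share, and the light-damaged respiratory and mitochondrial counts were not far above it. All-gene medians were themselves below 0, as given above, and the values are shares of a total in which the 4 rule genes took 5.38% and 6.17%. The nuclear RNAs Malat1 and Neat1 had larger shares: Malat1 18616 against 10558 CPM (1.76) and, in control, 38239 against 26301 CPM (1.45), and Neat1 204 against 62.0 and 201 against 79.2 CPM. Depth, mitochondrial share and nuclear RNA thus moved with the set in both libraries. With the remaining cells weighted to the depth of the chosen ones, 20 and 19 chaperone genes were higher, but genes lower numbered 270 in place of 362 and 324 in place of 392, and lists with a median over 1.5-fold lower numbered 0 in place of 1 and 2 in place of 4. With at most 5% mitochondrial UMIs 20 and 19 chaperone genes were higher, and 378 and 385 genes lower. The part of nuclear RNA was not tested.

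Of the disease-associated microglia genes 0 of 17 were higher and 6 were lower in light-damaged cells, and 0 of 14 were higher and 2 were lower in control cells; the share lower was 13.7% and 14.1% over all genes, so the control count was near the background. Ctsd, the lysosomal protease cathepsin D, had 7599 against 13048 CPM (0.58) and, in control, 7708 against 10441 CPM (0.74), and Tyrobp, the adaptor of Trem2, had 0.70 and 0.56. Apoe, the apolipoprotein made by activated microglia, had 4992 against 10929 CPM in the light-damaged library (0.46, 0.45 to 0.47) and 2962 against 2514 CPM in the control library (1.18, 1.13 to 1.23). C3ar1, the C3a receptor, had 538 against 243 CPM and, in control, 587 against 279 CPM. Complement genes, a separate list, had median log2 ratios of -0.32 in the light-damaged and -0.40 in the control library. Of 6 measured, 1 was higher in each library, and 0 and 1 were lower. Over all genes 12.1% and 15.1% were higher.

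**Figure D5:**
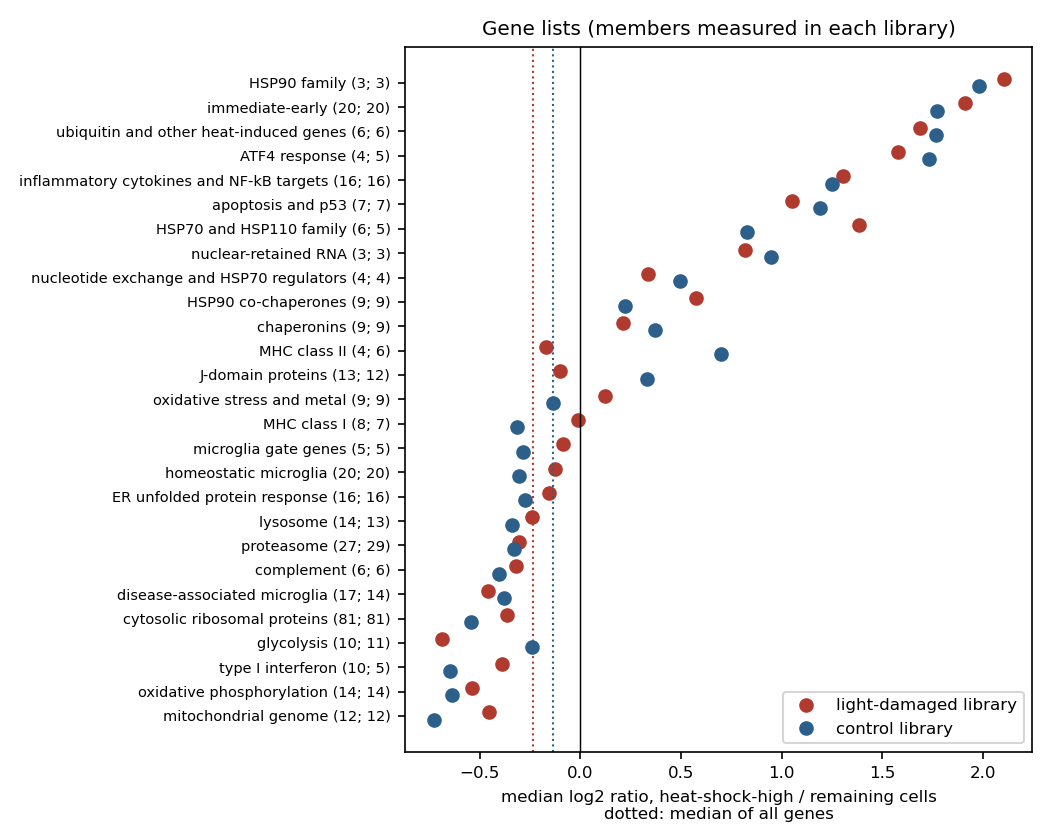
Median log2 ratio of heat-shock-high to remaining microglia for each gene list in the light-damaged (red) and control (blue) library, with the number of members measured in each library in brackets; dotted lines are the medians of all genes, -0.23 and -0.14. HSP90 (3 genes), immediate-early, ubiquitin, ATF4, cytokine and p53 lists lie above 1 in both libraries. Lists below both dotted lines include the ribosomal, respiratory and mitochondrial lists. The glycolysis, interferon, proteasome, complement and disease-associated lists lie there too.

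The last comparison was between libraries, light-damaged over control, within heat-shock-high cells and, beside it, within remaining cells; it compares 2 libraries and not conditions with replicates. The set is a top 5% in each, with different cuts. The 4 rule genes had LD over ctrl ratios of 0.99 for Dnajb1, 0.85 for Hspa1a, 1.16 for Hspa1b and 0.92 for Hsph1 within heat-shock-high cells, and 0.76, 0.53, 0.70 and 0.70 within remaining cells. Of the 44 other chaperone genes measured, 2 were higher and 6 lower in light-damaged heat-shock-high cells, where 8.62% and 15.4% of all genes were; in remaining cells it was 2 and 3 of 40, where 5.51% and 7.27% were. The median log2 ratio of the chaperones was 0.00 in both. Dnaja1 had 0.55 (0.52 to 0.57) in heat-shock-high and 0.56 in remaining cells, and Dnaja4 0.55 and 0.58. Hspb1 was 1.67 (1.49 to 1.88) in heat-shock-high and 0.54 in remaining cells, and Hsp90aa1 0.92 and 0.60.

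Interferon genes differed between the libraries in heat-shock-high as in remaining cells. Of the type I interferon genes 8 of 9 were higher in light-damaged heat-shock-high cells, with a median log2 ratio of 2.17, and 9 of 10 in remaining cells, with 1.95. Over all genes 8.62% and 5.51% were higher. Ifi27l2a had 868 CPM in light-damaged and 84.5 CPM in control heat-shock-high cells, a ratio of 10.3 (7.90 to 13.6), against 9.09 in remaining cells. Lgals3bp had 7.26 and 7.22, and Ifitm3, a restriction factor of virus entry, 7.76 and 6.74. Between heat-shock-high and remaining cells the list was mixed. In the light-damaged library 2 of 10 were higher, Isg15 (1.75) and Cxcl10 (1.83), and 2 lower. Over all genes there 12.1% were higher and 13.7% lower, so these counts were near the background. In the control library 0 of 5 were higher and 3 lower, where 15.1% and 14.1% of all genes were. Ifi27l2a had 0.66 in the light-damaged and 0.58 in the control library. Ier5, an immediate-early regulator of heat-shock factor 1, was the reverse, 403 CPM in light-damaged and 2587 CPM in control heat-shock-high cells, a ratio of 0.16 (0.14 to 0.17), against 0.14 in remaining cells. Jun had 0.68 and 0.42. Apoe was 1.68 in heat-shock-high and 4.35 in remaining cells.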

How the data were processed

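The matrices deposited by the authors hold UMI counts per gene and barcode, whole numbers without normalization. Cell Ranger 2.0.0 and mm10 are named in the submitters' processing notes, and aligner settings are not given there. Libraries were prepared with the 10x Genomics 3′ protocol, per the labels. Cells were filtered, gated and scored as described above (scanpy 1.11.5, Python 3.11.15). UMIs were summed over heat-shock-high and over remaining cells of each library and given as CPM; the ratio of the sums has an exact conditional Poisson 95% interval, which leaves out variation between mice, pools and libraries. Genes had to reach 50 CPM in either sum, and "higher" or "lower" means past 1.5-fold. The ratios and intervals were tried on simulated Poisson totals per gene. The summing over cells and the uneven spread of UMIs between cells were not part of that trial. No p-value was computed.

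No doublets were removed: Scrublet's automatic threshold marked 1 light-damaged and 0 control barcodes, so removing the highest scores was an alternative (3 and 7 of the heat-shock-high cells). Of 27998 identifiers, 56 symbols had more than 1, and the one with most UMIs was used. Promoters came from RefSeq (GRCm38.p6), gene positions and overlaps from GENCODE M21.

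Outside the rule genes, the text names the 15 highest and 10 lowest genes by the smaller absolute log2 ratio of both libraries, any measured chaperone gene, and per other list its most abundant member and up to 4 with the largest smaller ratio; others were named after their values were seen. Members and lists were chosen with earlier results of these data known. A further 2 alternatives were added after seeing the data, a minimum over all microglia and ratios divided by the median ratio. All results in the text compare sums of cells within or between single libraries.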

Additional observations from a re-analysis of the deposited data

Results flagged for a closer look

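These results went in opposite directions in the libraries or in the sets of cells compared, with at least 1 value past 1.5-fold; with 1 library per group none of these differences was tested. The MHC class II genes had a median log2 ratio of heat-shock-high over remaining cells of -0.17 in the light-damaged and 0.70 in the control library. The control value was -0.10 with the mean CPM per cell, and 2 of its 6 members passed the minimum only through the heat-shock-high cells. In control, Cd74, the invariant chain, had 424 against 185 CPM and H2-Aa 80.2 against 33.6 CPM; in the light-damaged library Cd74 had 200 against 166 CPM and H2-Aa 15.8 against 47.0 CPM. Summed perivascular macrophage markers moved the same way, 9.97 against 36.1 CPM in the light-damaged and 60.2 against 29.0 CPM in the control library, and their part in the result was not tested.

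Apoe had log2 ratios of -1.13 in the light-damaged and 0.24 in the control library. Its median per cell was 19.7 in heat-shock-high and 25.4 in remaining cells of the light-damaged library, and 8.27 against 7.88 UMIs per 10000 in the control library, where 10% of the heat-shock-high cells held 76.8% of its UMIs. The marker list of Mueller glia and astrocytes had medians of -0.61 over 2 measured genes, Glul and Vim, in the light-damaged and 0.40 over Glul alone in the control library; Glul was 1.40 and 1.32 times the level of the remaining cells.

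For light-damaged over control, Hspb1 had log2 ratios of 0.74 in heat-shock-high and -0.89 in remaining cells, and Lyz2, a macrophage lysozyme, -0.069 and 0.93. Dnajc5, a J protein, had -0.65 and 0.33, and Stub1, the ubiquitin ligase CHIP, -0.59 and 0.049.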

How the results depend on the processing

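No paired analysis was possible because each group was 1 library. Values are for the light-damaged, then the control library. Of the main counts and medians 185 stayed near the reported value and 55 did not; the main counts were 321 and 420 genes higher, 362 and 392 lower, and 1 and 4 lists with a median over 1.5-fold lower. Genes lower numbered 621 and 641 with the top 2.5% of cells, 125 and 157 with the top 10%, 206 and 237 with a gate of 40 and 95 and 197 with ratios divided by the median ratio; they were 591 light-damaged with the control cut and 749 control with a mean of scaled genes as the score. Genes higher and lower were 566 and 773, and 835 and 715, with a minimum of 20 CPM, 184 and 179, and 235 and 240, with 100 CPM, and 192 and 34, and 236 and 34, at 2-fold. With the minimum over all microglia 172 and 215 genes and, in the light-damaged library, 12 chaperone genes were higher. The chaperone median, 0.42 and 0.41, was 0.67 light-damaged with the top 2.5%, 0.66 with the control cut, 0.069 with 20 CPM and 0.65 with divided ratios, and 0.82 control with scaled genes and 0.83 with 100 CPM. Lists lower were 3 light-damaged with the top 2.5% or the control cut, 0 and 1 with the top 10%, 2 and 2 for cells chosen and read on separate UMIs, 2 light-damaged with a gate of 10 or 20 CPM, 0 and 0 with a gate of 40, 0 and 2 with the mean CPM per cell or depth weighting, 0 and 1 with divided ratios and 1 control without the rule genes in the total. A rule gene left out of the score had folds of 12.1 and 8.22 (Dnajb1), 5.29 and 3.09 (Hspa1a), 5.46 light-damaged (Hspa1b) and 7.92 and 6.05 (Hsph1). 4 values changed sign: light-damaged Lepr, 0.74 with the top 10% and 0.34 with a gate of 40; control MHC class II, -0.10 with the mean CPM per cell; and light-damaged small heat-shock proteins, -0.14 with 20 CPM, when more genes are counted. The cause was not tested for the others. Depth limits genes of few UMIs, such as Lepr with 13 and 5 in heat-shock-high cells.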

Other observations

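Barcodes that passed the filters but missed the microglial gate were not in the comparison. In the light-damaged library 80 of 2144 such barcodes (3.73%, exact binomial 95% interval 2.97 to 4.62) reached that library's score cut. In the control library 79 of 445 (17.8%, 14.3 to 21.6) did. Median depth outside the gate was 9326 and 5551 UMIs. High levels of the 4 genes were thus also found outside the gated microglia in both libraries.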
